A study of Mus musculus with 31 samples.

Results

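DNA methylation was compared between 2 classes of mouse oocyte from primordial follicles, Type2 and Type1. The members are the 3 libraries titled Type2 and the 3 titled Type1, so 6 of the 31 libraries of a series that covers 9 stages of follicle growth. All oocytes came from B6D2F1 mice, a cross of C57BL/6 with DBA/2, with no treatment named in the labels. Both classes carry the same tissue label (primordial follicle), and nothing used here says how Type2 and Type1 oocytes were told apart or how old the animals were. A further label names embryo stages (inner cell mass for Type2, zygote for Type1), which goes against the titles and was not used. Neither the number of oocytes in a library nor the animal it came from is stated in the labels. The p-values therefore measure only the spread between libraries, which may be technical. No expression was measured, so the oocyte label could not be checked against marker genes.

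In a primordial follicle a small, resting oocyte is surrounded by a single layer of flat granulosa cells. Female germ cells lose most of their DNA methylation in the embryo, and the mouse oocyte regains it only after birth, as it grows, through the methyltransferase DNMT3A and its partner DNMT3L. Resting oocytes are thus known for a genome with little CpG methylation, and differences between their subclasses would precede that gain.

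Reduced representation bisulfite sequencing was used, in which the enzyme MspI cuts at CCGG and CpG-rich fragments are read after bisulfite has turned unmethylated cytosine into a base read as T. A level is the percentage of reads that were methylated. Levels were taken over sites with at least 5 reads, summed into fixed tiles of 100 bp with at least 3 such sites. Type2 libraries held 44537103, 45173053 and 45881088 reads over sites and measured 94200, 91302 and 75586 tiles. Type1 libraries held 51294814, 38445853 and 48978836 reads and measured 90009, 42176 and 86693 tiles. Type1 replicate 2 thus measured the fewest tiles, and Type1 replicate 3 stood apart by its level, as given below. Of 163350 tiles measured anywhere in the series, 34779 were measured in all 6 libraries, and 69548 in at least 2 libraries of both stages.

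Tiles of low methylation were the most frequent class in both stages. Of the 34779 tiles, 16975 (48.8%) were under 10% in every one of the 6 libraries, and 2243 (6.45%) were at 0% in all 6. The mean level of the tiles under 10% was 0.787% in Type2 and 0.938% in Type1. Another 1794 tiles (5.16%) were at 50% or more in all 6, with mean levels of 66.6% in Type2 and 69.6% in Type1, and 72 tiles were at 80% or more in all 6. The mean of Type2 and that of Type1 lay within 5 points of each other in 25062 tiles (72.1%) and within 10 points in 30471 (87.6%).

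**Figure D1:**
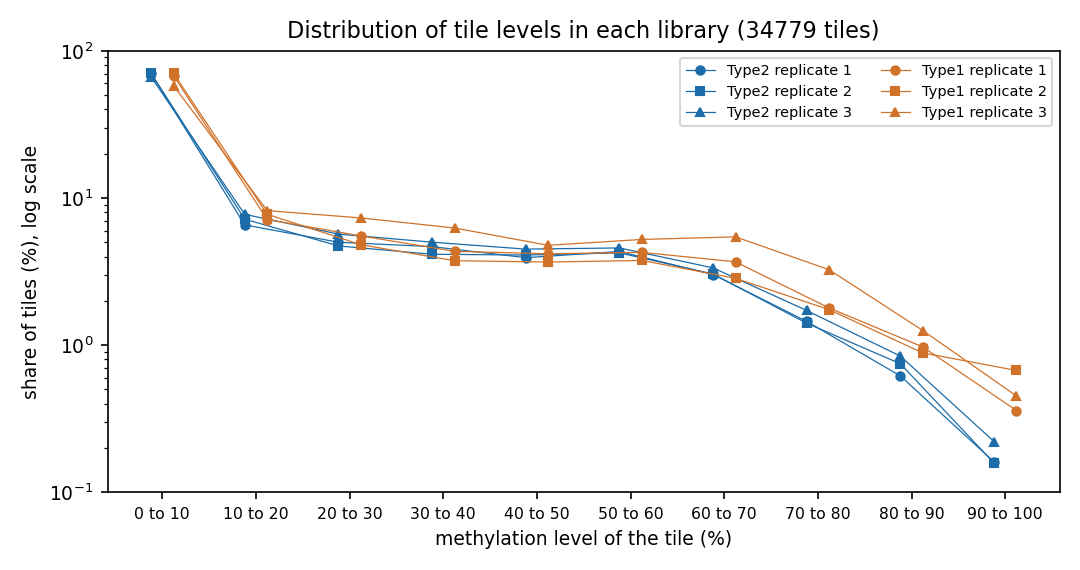
Share of the 34779 tiles (log scale) in each 10-point class of methylation level, with 1 line per library, Type2 in blue and Type1 in orange. All 6 lines are highest at 0 to 10%, and at 90 to 100% the 3 Type2 libraries lie below the 3 Type1 libraries.

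The mean tile level was 12.4, 12.3 and 14.03% in Type2 and 13.8, 12.5 and 18.5% in Type1. Type1 replicate 3 was the highest of the 6, and the other 5 overlapped. The stage means were 12.9% ± 0.967 in Type2 and 14.9% ± 3.15 in Type1 (SD, n = 3 each), a difference of -2.03 points that was smaller than the spread between Type1 libraries (two-sided exact permutation p = 0.5, adjusted over 13 library-level tests 0.591). Without Type1 replicate 3 the difference was -0.247 points. With all 6 libraries but reads pooled over sites in place of a mean over tiles, it was -0.479 points (exact permutation p = 1). With 3 libraries against 3 no exact p can fall below 0.1.

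Tiles at 80% or more were fewer in every Type2 library than in any Type1 library. They made up 0.779, 0.906 and 1.06% of tiles in Type2 and 1.33, 1.56 and 1.71% in Type1. The groups did not overlap, and the difference of -0.616 points had the smallest p the design allows (exact permutation p = 0.1, adjusted 0.591), so it did not pass the correction. The difference was -0.529 points without Type1 replicate 3, and -0.391 points with a minimum of 10 reads per site. Tiles at 50% or more made up 9.57, 9.59 and 10.7% in Type2 and 11.1, 9.91 and 15.6% in Type1, where the groups overlapped (exact permutation p = 0.2, adjusted 0.591). Tiles under 10% made up 70.3, 70.3 and 66.4% in Type2 and 67.8, 70.1 and 57.8% in Type1 (exact permutation p = 0.5, adjusted 0.591).

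**Figure D2:**
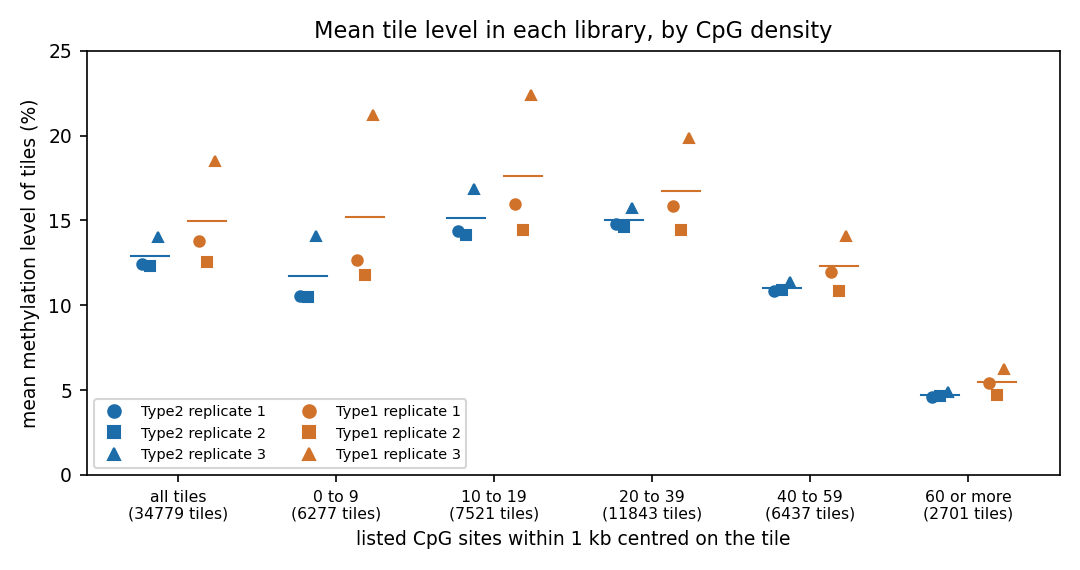
Mean methylation level of tiles in each library (points) and of each stage (bars), over all 34779 tiles and by the number of CpG sites listed within 1 kb centred on the tile; Type2 is left of Type1. Type1 replicate 3 is the highest library in every class.

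The excess of Type1 replicate 3 over the other Type1 libraries was smaller in CpG-dense tiles, whose level was also lower. Density counted the CpGs found in the files within 1 kb of sequence, and thus only those the assay reached. In the 6277 tiles with 0 to 9 sites the level was 10.5, 10.5 and 14.1% in Type2 and 12.6, 11.8 and 21.2% in Type1. Here Type1 replicate 3 lay 8.99 points above the mean of Type1 replicates 1 and 2. In the 2701 tiles with 60 or more sites the level was 4.60, 4.68 and 4.91% in Type2 and 5.43, 4.70 and 6.23% in Type1, and the excess of Type1 replicate 3 was 1.17 points. Type2 minus Type1 was -3.51 points in the sparsest class and -0.727 in the densest (exact permutation, adjusted p = 0.591 for both). Without Type1 replicate 3 these differences were -0.509 and -0.338.

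Tiles were also grouped by their level in Type7, a stage from antral follicles whose libraries take no part in the comparison. In 18074 tiles under 20% in Type7 the mean level was 2.10% ± 0.509 in Type2 and 3.24% ± 1.36 in Type1. In 5272 tiles at 80% or more in Type7 it was 23.6% ± 1.73 in Type2 and 27.0% ± 5.25 in Type1 (exact permutation, adjusted p = 0.591 for both). In 8667 tiles between these bounds it was 31.4% ± 1.42 in Type2 and 34.6% ± 5.90 in Type1 (exact permutation, adjusted p = 0.7). Type2 minus Type1 was -1.14 points in the lowest class, -3.13 in the middle one and -3.36 in the highest. Without Type1 replicate 3 these differences were -0.363, 0.124 and -0.339 points. Tiles of middling Type7 level were thus the most methylated of these classes in both primordial stages.

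CpG-dense sequence on X is methylated on an inactive X chromosome, which somatic female cells carry, so its level can move with DNA of other cells. The X measure is the mean level of X tiles with 60 or more listed sites per kb (57 tiles) minus that of autosomal tiles of the same density. It was -1.78, -2.31 and -1.87 points in Type2 and -0.385, -1.34 and 1.27 points in Type1. Every Type2 library lay below every Type1 library, and Type1 replicate 3 was the only one of the 6 above 0 (difference -1.83 points, exact permutation p = 0.1, adjusted 0.591). The difference was -1.12 points without Type1 replicate 3. The library with the highest mean level thus also had the highest X measure, and the part of other cells in the comparison was not tested.

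The base on each side of a CpG went with its level in the same way in both stages. Over sites measured in all 6 libraries, CpGs read as CCGG, the MspI site, had 17.4% ± 1.47 in Type2 and 20.2% ± 4.12 in Type1, the highest of 10 contexts. CpGs in ACGT had 1.79% ± 1.08 in Type2 and 4.14% ± 3.16 in Type1, the lowest. CpGs in ACGA or its reverse complement TCGT had 3.13% ± 1.19 in Type2 and 5.15% ± 2.88 in Type1. No context was tested.

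Leaving aside Y with its 6 tiles, X had the highest mean level, 24.6% ± 1.35 in Type2 and 27.1% ± 5.18 in Type1. Chromosome 17 had the lowest level in Type2, 8.36% ± 0.959, against 10.5% ± 2.61 in Type1. Chromosome 8 had 8.66% ± 0.995 in Type2 and 10.3% ± 2.94 in Type1. Each of the 19 autosomes and X was lower in Type2 by between 1.66 and 2.88 points, and without Type1 replicate 3 chromosomes 1, 12, 18 and X were higher in Type2.

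Type2 libraries differed less from each other than Type1 libraries did. Counts at sites with at least 10 reads were scaled down to 10, which drops no reads and does not make depth equal between libraries. Tile levels of a pair of Type2 libraries then differed on average by 5.32 points ± 0.458 (SD over 3 pairs). Those of a pair of Type1 libraries differed by 8.10 ± 1.65, and those of a Type2 and a Type1 library by 6.89 ± 1.51 (9 pairs). Type1 replicates 1 and 2 differed by 6.23 points. Each pair was compared over the tiles that both libraries measured, so the tiles differed between pairs. Type2 pairs had between 55900 and 64012 tiles. Type1 pairs had 29441 (replicates 1 and 2), 31618 (replicates 2 and 3) and 57167 (replicates 1 and 3). Pairs share libraries, so no test was made.

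**Figure D3:**
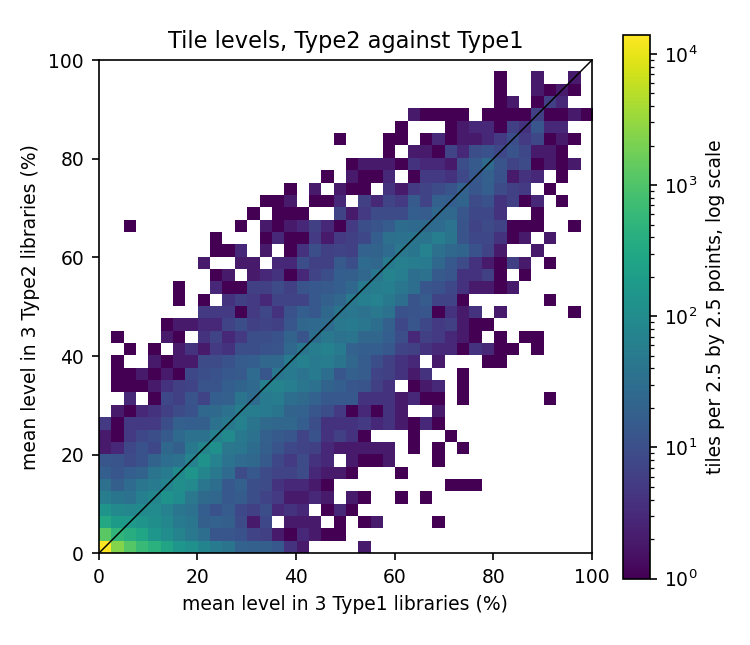
Mean level of each of 34779 tiles in the 3 Type2 libraries (vertical) against the 3 Type1 libraries (horizontal), as the number of tiles per square of 2.5 points on a log colour scale. Most tiles lie at the lower left corner, and the rest scatter about the diagonal of equal levels.

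Each tile was tested with a quasi-binomial model of its methylated and total reads, fitted over all 31 libraries with stage as factor. Calls required a difference of 20 points or more together with a Benjamini-Hochberg adjusted p below 0.05. Of 69548 tiles, 2 were called lower in Type2 (0.00288%) and 0 higher. An unadjusted p under 0.05 was reached by 2767 tiles (3.98%), of which 2232 were lower in Type2 (3.21% of tiles tested) and 535 higher (0.769%). How far the balance leaned to Type2 lower depended on 1 library. In the tiles measured in all 6, the Type2 mean was the lower one in 59.9% and the higher one in 33.6%, but in 39.4% and 49.7% without Type1 replicate 3. Tiles with a difference of 20 points or more numbered 751 with Type2 lower and 226 with Type2 higher, but 679 and 528 without that library. The count depended on the form of the test, which was settled after results had been seen: over 19 forms run on these data it lay between 0 and 53. The most came from the F test of the deviance, with 53 tiles (0.0762%), 49 lower in Type2 (0.0705%) and 4 higher (0.00575%). With other methods, limma called 3 tiles lower and edgeR 0, and neither of the 2 tiles called here passed in limma (adjusted p = 0.39 and 0.963). In a fit on the 6 libraries alone, 0 tiles were called. Without Type1 replicate 1 or 3 the count was also 0, but there both called tiles drop below the minimum of 2 libraries per stage and were not tested.

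The first called tile lies on chromosome 1, chr1:44665501-44665600 (mm9, 1-based, as are all tile positions here). Its level was 44.7, 30.2 and 35.9% in Type2, against 81.7 and 81.8% in Type1 replicates 1 and 3, from 639 to 1783 reads a library. Type1 replicate 2 did not measure it. The groups did not overlap, and the difference was -44.8 points (adjusted p = 0.000147, quasi-binomial model). Over its alternatives the adjusted p ran between 1.24e-05 and 1, and 10 of 14 called it. Among the 10, leaving out Type1 replicate 2 removed no reads of the tile, and other read and site minimums left its difference at -44.8 points. The tile was not called with at most 10 reads per site, in a fit on the 6 libraries (adjusted p = 0.729, quasi-binomial model), in limma or in edgeR. In the other stages its mean level lay between 64.9% in Type3b and 83.4% in Type3a, so Type2 was the lowest of the 9 stages.

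The second lies on chromosome 2, chr2:151169001-151169100. Its level was 37.6, 42.9 and 46.6% in Type2, against 91.7 and 94.4% in Type1 replicates 1 and 3, from 219 to 1093 reads a library. Type1 replicate 2 did not measure this tile either, and the groups did not overlap. The difference was -50.7 points (adjusted p = 0.0478, quasi-binomial model), and 1 of 13 alternatives called it, at adjusted p between 0.00178 and 1. Other stages averaged between 57.3% in Type5b and 94.4% in Type6, with libraries of Type4 between 27.0 and 83.0%.

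All CpGs measured in these tiles are shown by the 5 bases listed for each in the deposited files, since the difference was not even across them. Capitals mark the CpG, and positions count from the first base of the tile.
chr1 tile, base 40: ccCGg
chr1 tile, base 64: acCGc
chr1 tile, base 72: ctCGa
chr1 tile, base 79: tcCGc
chr1 tile, base 81: cgCGc
chr1 tile, base 83: cgCGa
chr2 tile, base 39: atCGc
chr2 tile, base 41: cgCGt
chr2 tile, base 58: tgCGg
chr2 tile, base 82: cCGgg
At base 81 of the chromosome 1 tile the mean was 24.7% in Type2 (lowest 16.2, highest 35.2) and 93.5% in Type1 (lowest 92.1, highest 94.8). At base 40, in an MspI site, it was 56.3% in Type2 (21.6 to 94.6) and 47.5% in Type1 (42.7 to 52.4), so this CpG did not share the direction of the tile. At base 72 it was 5.10% in Type2 and 48.9% in Type1. It was 48.0% in Type2 and 91.6% in Type1 at base 64, 42.3% in Type2 and 90.1% in Type1 at base 79, and 40.2% in Type2 and 89.6% in Type1 at base 83. At base 41 of the chromosome 2 tile it was 14.4% in Type2 (1.28 to 25.8) and 98.8% in Type1 (97.5 to 100). It was 23.0% in Type2 and 95.9% in Type1 at base 39, and 78.8% in Type2 and 99.8% in Type1 at base 58. At base 82, again in an MspI site, it was 55.9% in Type2 (37.5 to 70.4) and 77.2% in Type1 (65.9 to 88.4), and the libraries overlapped.

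**Figure D4:**
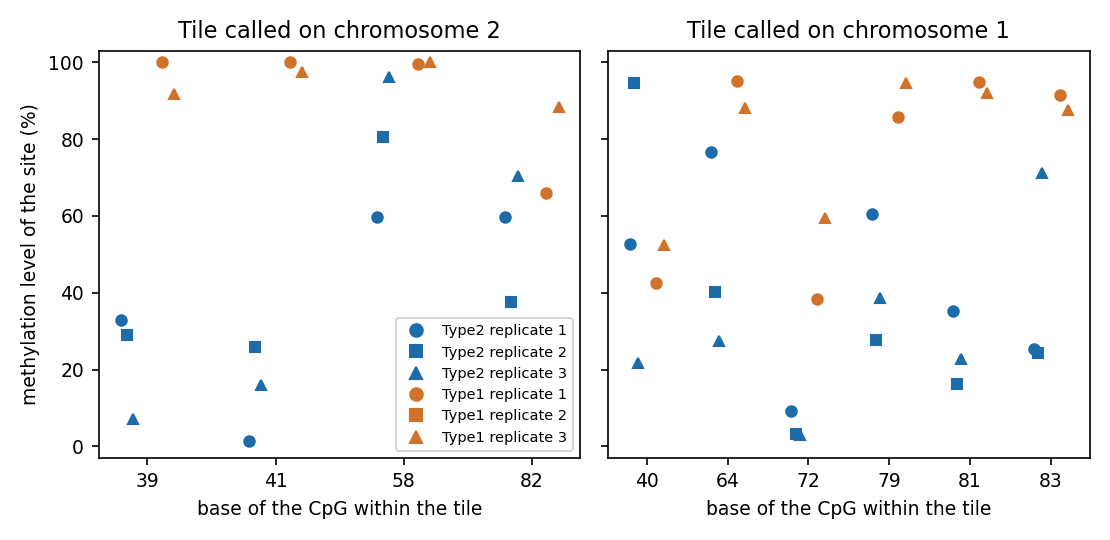
Methylation level of each CpG in the 2 called tiles, by its base within the tile, in each library that measured it; Type2 (blue) is left of Type1 (orange). At base 81 of the chromosome 1 tile all Type2 libraries are at 35.2% or less and both Type1 libraries at 92.1% or more.

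A further 18 tiles are named as values that did not pass. They are the tiles of lowest unadjusted p among those measured in all 6 libraries with no overlap between the stages and a difference of at least 20 points. There were 286 such tiles with Type2 lower (0.822% of the tiles measured in all 6) and 80 with Type2 higher (0.23%). Without regard to size, Type2 lay below Type1 with no overlap in 1886 tiles (5.42%) and above it in 589 (1.69%), with Type1 replicate 3 included. Libraries ordered at random would show each of these orders in 1 of 20 splits where no levels tie, and the counts were not tested. Type1 replicate 3 alone was above all other 5 libraries in 13332 tiles (38.3%).

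Lower in Type2 was a tile at chr5:91248301-91248400, with 37.8, 37.3 and 47.0% in Type2, against 70.7, 84.9 and 81.7% in Type1 (adjusted p = 0.143, quasi-binomial model). At chr4:36217801-36217900 the level was 2.21, 6.64 and 16.9% in Type2, against 28.2, 60.2 and 61.6% in Type1 (adjusted p = 0.381, quasi-binomial model). The libraries of both stages differed widely among themselves there. At chr2:151026001-151026100, on the same chromosome as the second called tile, it was 37.7, 37.8 and 37.1% in Type2, against 51.9, 61.9 and 60.1% in Type1 (adjusted p = 0.496, quasi-binomial model).

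Higher in Type2 was a tile at chr5:43223301-43223400, with 54.0, 43.3 and 67.8% in Type2, against 29.5, 27.7 and 22.8% in Type1 (adjusted p = 0.428, quasi-binomial model). At chr3:14722001-14722100 the level was 57.1, 69.2 and 57.2% in Type2, against 19.3, 29.6 and 21.5% in Type1 (adjusted p = 0.813, quasi-binomial model). The tile at chrX:41869201-41869300 had 81.4, 75.4 and 77.7% in Type2, against 57.6, 53.0 and 63.6% in Type1 (adjusted p = 0.563, quasi-binomial model).

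**Figure D5:**
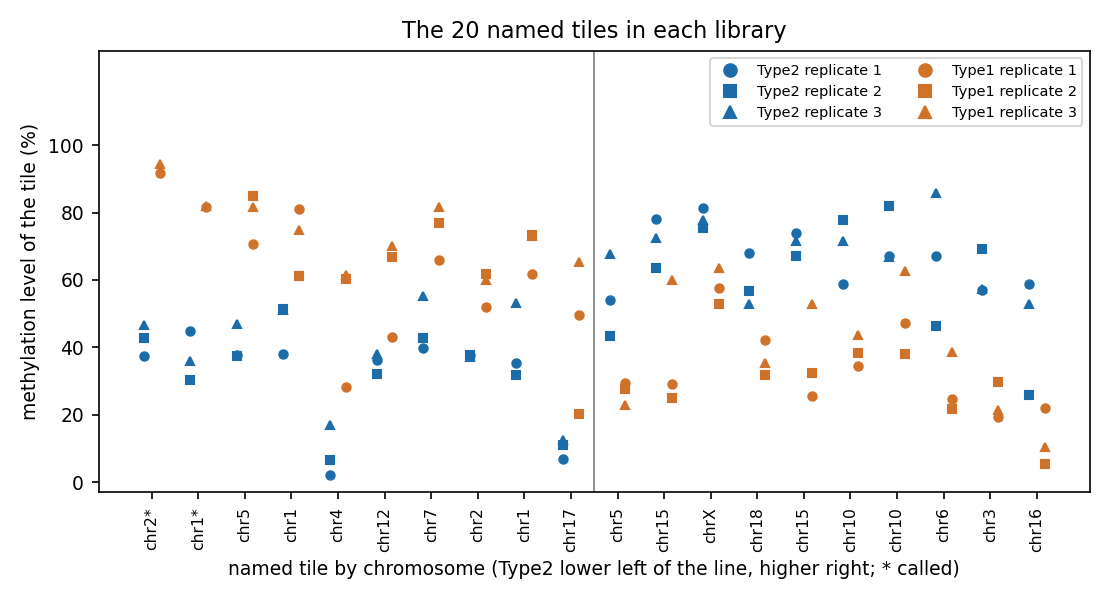
Methylation level of the 20 named tiles in each library, Type2 (blue) left of Type1 (orange); the 10 tiles left of the line are lower in Type2 and the 10 right of it higher. The 2 tiles marked * were called, and the other 18 did not pass.

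Wider regions were compared as the mean level of the tiles in windows of 1 Mb with at least 10 tiles. Of 1440 windows, 0 were called by limma (lowest adjusted p 0.682), and 67 lower (4.65%) and 1 higher (0.0694%) had an unadjusted p under 0.05. The Type2 mean was the lower one in 1243 windows and the higher one in 197. Without Type1 replicate 3 these counts were 819 and 621, and 49 lower and 40 higher had an unadjusted p under 0.05. With each library's mean level subtracted, the direction turned, with 620 windows lower and 820 higher in Type2, and 43 lower and 38 higher had an unadjusted p under 0.05. The lowest p belonged to chromosome 4, 25000001 to 26000000, with 30.8, 26.0 and 27.1% in Type2, against 40.4, 37.8 and 44.3% in Type1, a difference of -12.9 points over 11 tiles (limma, adjusted p = 0.682). The window of lowest p with Type2 higher was on chromosome 16, 19000001 to 20000000, with 25.7, 24.0 and 28.4% in Type2, against 21.5, 16.6 and 21.4% in Type1 (limma, adjusted p = 0.776).

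Promoters were placed by matching the 300 bases around each gene start in RefSeq to the CpGs listed in the files, by bases and spacing, because no annotation of mm9 was used. Of 32851 promoter sequences, 9419 (28.7%) matched at 1 place, and 43 matched when searched on a wrong chromosome. In the 2692 promoters measured in all 6 libraries the mean level was 1.02, 0.925 and 1.22% in Type2 and 1.58, 1.45 and 1.69% in Type1. The means of the Type2 libraries all lay below those of the Type1 libraries, but the medians overlapped, at 0.190, 0 and 0.268% in Type2 and 0.0378, 0 and 0.501% in Type1, and neither was tested. Under 10% in all 6 were 2460 promoters (91.4%), and 0 were at 20% or more in all 6. Of 4663 promoters tested, 0 were called in either direction. An unadjusted p under 0.05 was reached by 152 lower in Type2 (3.26%) and 47 higher (1.01%).

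The promoter bases of the pair below, before the gene start, are shown as examples chosen after their values were seen: Klhl28 with methylated reads at a few CpGs, and Tex101 with methylated reads at most CpGs of 1 library. Klhl28 encodes a BTB and kelch domain protein, and Tex101 a surface protein of germ cells known in mouse from sperm. Capitals mark CpGs with at least 5 reads in any of the 6 libraries. The sequences are those of RefSeq on build GRCm38.p6, minus strand, at chr12:64965537-64965786 for Klhl28 and chr7:24672051-24672300 for Tex101.
Klhl28: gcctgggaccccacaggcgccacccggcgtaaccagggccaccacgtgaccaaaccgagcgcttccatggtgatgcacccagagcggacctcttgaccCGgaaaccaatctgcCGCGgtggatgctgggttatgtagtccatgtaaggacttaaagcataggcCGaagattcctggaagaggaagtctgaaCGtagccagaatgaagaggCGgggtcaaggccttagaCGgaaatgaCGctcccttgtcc
Tex101: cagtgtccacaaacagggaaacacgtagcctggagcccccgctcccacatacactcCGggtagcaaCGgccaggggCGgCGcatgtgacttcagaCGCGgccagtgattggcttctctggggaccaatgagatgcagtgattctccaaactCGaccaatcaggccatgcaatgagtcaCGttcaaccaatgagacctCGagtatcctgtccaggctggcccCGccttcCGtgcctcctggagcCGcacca

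The promoter shared by Klhl28 and Togaram1, genes on opposite strands whose promoters overlap, had the lowest p. It had 0.551, 0.552 and 0% in Type2, against 8.73, 2.22 and 5.71% in Type1 (adjusted p = 0.111, quasi-binomial model). In Type1 replicate 1 the methylated reads shown lay at 2 CpGs, 28 of 95 reads at base -152 and 36 of 94 at base -87 from the start. In Type1 replicate 3 they were 4 of 9 reads at base -137. Lcorl, a transcription factor gene linked to body size in mammals, had 0.0986, 0 and 1.44% in Type2, against 3.14, 13.4 and 0.106% in Type1 (adjusted p = 0.255, quasi-binomial model). At base -40 all reads were methylated in Type1 replicates 1 and 2 (6 of 6 and 169 of 169), and at base -7 in Type1 replicate 2 (174 of 174). Rrp9, which encodes a protein of the ribosomal RNA processing machinery, was among those with Type2 higher, at 1.02, 4.28 and 3.86% in Type2, against 0.733, 0.121 and 1.15% in Type1 (adjusted p = 0.838, quasi-binomial model).

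Gene lists, 6 in all, were followed by their promoters, most of whose members had no matched or measured promoter. Of 30 germline and meiosis genes 5 were tested, of 25 oocyte genes 3, of 21 DNA methylation genes 4 and of 17 maternally imprinted promoters 5. Of 18 granulosa and ovarian somatic genes 3 were tested, and of 12 housekeeping genes 3. In every list 0 were called, as over all 4663 promoters. The median of Type2 minus Type1 was 0.217 points in oocyte genes, 1.39 in DNA methylation genes, -9.42 in germline and meiosis genes, -0.985 in imprinted promoters, -0.454 in somatic genes and -0.470 in housekeeping genes, against 0 over all promoters tested. The lists are small, and 1 library carried several of these values. The germline median is that of Slc25a31, with 1.13% in Type2 and 10.6% in Type1, and without Type1 replicate 3 the median of the list was 0.943 points. Without it the medians were also 0.331 in imprinted promoters and 0.897 in somatic genes, so 3 lists turned direction. The median was then 0.670 in oocyte genes, 1.03 in DNA methylation genes and -0.674 in housekeeping genes. Several promoters keep only 1 Type1 library in this setting, under the minimum of 2 libraries per stage, among them all 3 somatic genes. The germline median is then that of Tex101, set against Type1 replicate 2 alone.

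Among germline genes, Tex101 had 0, 1.69 and 1.13% in Type2, against 0% in Type1 replicate 2 and 55.3% in Type1 replicate 3 (adjusted p = 0.961, quasi-binomial model). Type1 replicate 1 did not measure it. Type1 replicate 3 had 16 of 25 reads methylated at base -7 and at base -53, while the 3 Type2 libraries had 0 methylated reads at both. Rpl10l, a ribosomal protein gene used in male meiosis, had 1.64, 0.190 and 16.3% in Type2, against 0% in Type1 replicate 1 and 51.1% in Type1 replicate 3 (adjusted p = 0.961, quasi-binomial model). Both promoters were high in Type1 replicate 3. Slc25a31 was also highest in that library, with 0.821, 0 and 2.58% in Type2, against 3.29% in Type1 replicate 1 and 17.8% in Type1 replicate 3. Not every germline gene shared this. Asz1, which acts in the piRNA pathway, had 0.311, 0.138 and 8.81% in Type2, against 0.133, 0 and 7.80% in Type1, so replicate 3 of both stages was the higher one. Smc1b, a subunit of meiotic cohesin, had 0 methylated reads in all 6 libraries, from 16 to 34 reads each.

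Among the listed imprinted promoters, Snrpn had 11.8, 18.02 and 52.0% in Type2, against 0% in Type1 replicates 1 and 3 (adjusted p = 0.961, quasi-binomial model), from 51 to 234 reads a library. Type2 libraries differed widely among themselves there. Mcts2 had 0, 0 and 2.54% in Type2, against 0.143, 0 and 5.36% in Type1, and averaged 97.5% in Type7. Zrsr1 had 0, 0.649 and 2.58% in Type2, against 0, 1.49 and 0% in Type1, and averaged 97.2% in Type7. Grb10 had 0.879, 1.35 and 0% in Type2, against 6.39, 0.270 and 0.943% in Type1, and averaged 0.0741% in Type7, so the promoter matched here was low at that stage too. These 3 promoters were at 6.39% or less in all 6 libraries. Nnat, the remaining member tested, went the other way from Snrpn, with 0, 0 and 0% in Type2. It had 0% in Type1 replicate 2 and 19.05% in Type1 replicate 3 (adjusted p = 0.976, quasi-binomial model). Type1 replicate 1 did not measure Nnat. The 19.05% rests on 12 of 63 reads, and Nnat averaged 98.5% in Type7.

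Of the DNA methylation genes, Dnmt1, which encodes the maintenance methyltransferase, had 0.0770, 0.755 and 2.98% in Type2, against 9.01, 0 and 1.78% in Type1 (adjusted p = 0.995, quasi-binomial model). The groups overlapped, and Type1 replicate 1 was the highest library. The other members tested had the higher mean in Type2, with overlapping groups. Setdb1 averaged 3.23% in Type2 and 1.45% in Type1. Uhrf1 averaged 1.01% in Type2, from 3.02, 0 and 0%, and had 0% in Type1 replicates 2 and 3. Ehmt2 averaged 2.56% in Type2, from 0, 0 and 7.69%, and had 0% in Type1 replicates 1 and 2. The Type2 means of Uhrf1 and Ehmt2 thus each came from 1 library. Of the oocyte genes, Nlrp5, also called Mater, had 4.80, 8.81 and 14.5% in Type2, against 7.14, 0 and 0% in Type1 (adjusted p = 0.961, quasi-binomial model). The groups overlapped, and the 7.14% rests on 4 of 56 reads. Ybx2 averaged 0.670% in Type2 and 0.453% in Type1. Tle6 had the lower mean in Type2, 0.873% against 1.47% in Type1, and both had overlapping groups. Outside the lists, Kdm2b was named as a promoter whose lowest library was among the highest of all promoters. Its protein binds unmethylated CpG islands, and it had 3.47, 2.88 and 3.11% in Type2, against 4.48, 2.60 and 2.75% in Type1.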

How the data were processed

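Per the labels' protocols, oocytes were lysed, the DNA was cut with MspI, joined to adaptors that were already methylated, treated with bisulfite, enriched by PCR and selected by size on a gel. Per the submitters' processing notes, the tool was BSMAP 2.89 and the build mm9. Trimming and the program that called methylation were not given in the sources used here. The deposited files give, per CpG, the count of total and of methylated reads, and the methylated fraction, which the authors made from those counts. From the values, no listed site has fewer than 3 reads. Without molecular identifiers, PCR copies count as reads, so depth and counting intervals cover counting error only. Cytosines filled in at MspI ends read as unmethylated unless trimmed, and so does a C that is T in one parent strain.

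Tiles were tested by a quasi-binomial model over 31 libraries, with Pearson dispersion moderated over tiles and floored at 1. The contrast was a Wald F test of the log odds, with 0.5 added to the methylated and the unmethylated reads of a stage. The planned design named an F test but not its form. In all, 19 forms were run on the real data, the deviance form first, and calls lay between 0 and 53. The Wald form was then taken because on simulated reads it called far fewer unchanged tiles than the deviance or score form. It still called 12 of 69348 unchanged tiles there, more than the 2 tiles called in the real data. Of 50 simulated tiles changed by each of 20, 30, 40 and 50 points, it called 2, 7, 16 and 13. Adjusted p-values of called tiles are therefore optimistic. A deviance form with reads weighted for a within-library correlation of 0.02 called 15 of the 69348 unchanged tiles. Of the changed tiles it called 1, 5, 14 and 16. It called 0 tiles in the real data, so the simulation did not settle the choice between it and the Wald form. Two-sided exact permutation tests were used for values per library. Named tiles are the called ones, filled up to 10 per direction by lowest p as described. Members, lists and alternatives were chosen with earlier results of these data known. The plan was to name genes only with an annotation of the files' build; placing RefSeq promoters by at least 4 matching sites, the promoter tests and the gene lists were added after the files had been seen.

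Libraries of a stage did not have identical counts at more than 0.91% of the sites that both read 20 times or more, so none was treated as a duplicate. Tests ran in limma 3.58.1 and edgeR 4.0.16 under R 4.3.3, and otherwise in Python 3.11.15 with scipy 1.17.1, pandas 2.3.3 and numpy 2.4.6. Alternatives were other read and site minimums, tile sizes, limma, edgeR, a fit on 6 libraries, a replicate block and each library left out. Another scaled the counts of a site down to at most 10 reads.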

Additional observations from a re-analysis of the deposited data

Results flagged for a closer look

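Read counts summed over Y chromosome sites, a signal outside the comparisons above, averaged 110 RPM in Type2 and 106 RPM in Type1. RPM here scales them to the counts summed over all sites of the library, so a read counts at each site it covers. The stages overlapped, with 109, 122 and 99.5 RPM in Type2 and 118, 86.7 and 114 RPM in Type1. The source of these Y reads was not tested. Reads over mitochondrial sites averaged 0.708 RPM in Type2 and 0.484 RPM in Type1, and Type2 replicate 3 had 0 such reads.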

How the results depend on the processing

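The count of 2 called tiles changed with most settings. It was 1 with a read minimum of 3 or 10 and with at least 1 or 5 sites per tile. It was 0 with either wider tile size, with at most 10 reads per site, in a fit on the 6 libraries and with edgeR. It was also 0 when 9 libraries with a positive X measure were left out. Those 9 include Type1 replicate 3, so both called tiles fell below 2 libraries per stage there and were not tested. The count was 5 with no minimum difference, 3 with 10 points, 3 with limma, and between 0 and 1 with each library left out. The form of the test, settled after results were seen, moved it most. With Pearson dispersion moderated over the tiles tested the deviance F called 53 (4 higher, 49 lower) and the score F 27; moderated over all tiles these were 52 and 24, and the Wald F called 1. With deviance dispersion the deviance F called 29 or 28, the score F 14 and the Wald F 1. Weighting reads for a within-library correlation called 0. The promoter count of 0 became 4 with the deviance F. Of 27 alternatives for the 2 called tiles, 11 kept the call. The replicate block called 3 tiles. Same-numbered libraries had correlations of deviations of 0.0457, 0.0322 and 0.0985. Libraries of different number had between -0.0686 and 0.0336, and Type2 replicate 2 correlated best with Type1 replicate 1 (0.0336). These small values do not settle whether libraries of the same number belong together. A sign-flip test over 3 pairs cannot fall below 0.25. Leaving out Type1 replicate 3 turned the difference in tiles of 20 to 80% in Type7 to 0.124 points, and over single libraries left out that difference lay between -5.63 and 0.124. The difference between paired libraries, Type2 minus Type1, was -2.78 points, and between -4.01 and -0.907 with single libraries left out. Type1 replicate 2 measured 42176 tiles, the fewest, and both called tiles lack it. The list medians without Type1 replicate 3 were an alternative chosen after seeing the data.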
